A study of Homo sapiens with 8 samples.

Results

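The transcripts of 10 genes that encode chromatin modifiers mutated in B-cell lymphoma (KMT2D, KMT2C, CREBBP, EP300, KDM6B, ARID1A, SMARCA4, TET2, DNMT3A and HDAC9) were followed in SUDHL6 cells exposed to compounds directed at EZH2. SUDHL6 is an established human cell line from a diffuse large B-cell lymphoma of the germinal-centre type. The genes were chosen by symbol, and all 10 were present in each deposited table, which held 18744 genes (MS8815), 18320 genes (EPZ-6438) and 18398 genes (MS8815N), with 17467 genes common to all. The groups were SUDHL6 cells given 2.5 µM MS8815, a PROTAC (a compound that tags its target for degradation) against EZH2, 2.5 µM EPZ-6438, an inhibitor of the catalytic SET domain of EZH2, 2.5 µM MS8815N, a matched analog without PROTAC activity, or the solvent DMSO. Each of the 4 groups had 2 libraries, all harvested at 18 h, and the study asked how the transcriptome of each compound differed from that with DMSO. Whether the duplicates were separate cultures is not stated in the labels. The spread behind every p-value below is that between duplicate libraries and may be technical. All libraries came from 1 cell line, and no genotype of the 10 genes was analysed here.

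EZH2 is the catalytic subunit of Polycomb repressive complex PRC2, which writes a repressive methyl mark on histone H3, and it restrains gene expression in germinal-centre B cells. KMT2D and KMT2C methylate histones at enhancers, CREBBP and EP300 acetylate them there, KDM6B removes the mark that EZH2 writes, ARID1A and SMARCA4 belong to the SWI/SNF remodelling complexes, TET2 and DNMT3A remove and add DNA methylation, and HDAC9 is a histone deacetylase. Genes of this kind are recurrently mutated in lymphomas of germinal-centre origin, KMT2D and CREBBP among the most often.

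The cells carried the B-cell markers that the label calls for, except that the MS8815 libraries stood apart. Levels are given as normalised read counts, the reads of a gene after the authors' normalisation, on a scale common to the 3 tables. The summed level of 14 B-cell markers was 91410 and 90540 with MS8815, 183800 and 184600 with EPZ-6438, 182700 and 182800 with MS8815N, and 183200 and 184400 with DMSO, so that the MS8815 mean was 49.5% of the DMSO mean. MS4A1, which encodes CD20, had 6933 and 6917 normalised counts with MS8815, against 16845 and 17099 with DMSO. The summed level of 18 markers of adherent cells was 80650 and 80530 with MS8815, 20290 and 20230 with EPZ-6438, 21500 and 20880 with MS8815N, and 18290 and 18170 with DMSO, a mean with MS8815 of 442% of that with DMSO. KRT8, a keratin of epithelial cells, had 5183 and 5139 normalised counts with MS8815, against 315.6 and 303 with DMSO. The 4 macrophage and monocyte markers shared by the tables stood at 430% of DMSO in the MS8815 libraries and the 3 T and NK cell markers at 73%, and no shared marker was at 0 in any library. With MS8815, 13 of 14 B-cell markers fell (median log2 fold change -1.01) and 18 of 18 adherent-cell markers rose (median 3.75), by limma at an adjusted p under 0.05. Likewise 3 of 4 macrophage markers rose (median 3.07) and 0 of 3 T and NK cell markers changed (0 at an unadjusted p under 0.05). In that comparison 24.5% of all genes were higher and 22.4% lower. The marker lists were chosen with earlier results of these data known, so their counts and medians are descriptive and test nothing. With MS8815N only VIM of these markers changed (0.20, adjusted p = 0.0329), and with EPZ-6438 none did. Of all genes 0.533% were called with MS8815N and 0.0328% with EPZ-6438. At an unadjusted p under 0.05, MS8815N had 6 of 14 B-cell, 8 of 18 adherent-cell and 0 of 4 macrophage markers, and EPZ-6438 had 4, 5 and 1. The share of all genes under that p was 15.7% with MS8815N and 16.8% with EPZ-6438. The median log2 fold change of the adherent-cell markers was 0.39 with MS8815N and 0.27 with EPZ-6438. In bulk RNA, fewer cells of a type and less RNA per cell cannot be told apart. The part of other cells' RNA in the MS8815 results below was not tested. Estimated depths were 13.0 M and 14.6 M reads (M, mega) with MS8815, 30.5 M and 26.0 M with EPZ-6438, 34.1 M and 30.2 M with MS8815N, and 30.9 M to 31.6 M with DMSO, so the MS8815 values rest on fewer reads.

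With MS8815, 7 of the 10 genes changed relative to DMSO on the deposited scale, 3 upward (TET2, DNMT3A and KDM6B) and 4 downward (HDAC9, EP300, ARID1A and CREBBP), while KMT2D, KMT2C and SMARCA4 did not pass the test. As many as 46.9% of all genes were called in that comparison, 24.5% higher and 22.4% lower, so calls among the members are read against a high background. After quantile normalisation 3 members were higher and 1 lower, where 19.8% of all genes were higher and 29% lower. With the libraries scaled to the B-cell markers 8 were higher and 0 lower, near the 71.8% of all genes that were higher (0.752% were lower). Of all called genes, 52.3% were higher on the deposited scale, 40.6% after quantile normalisation and 99.0% with B-cell scaling. The members' median log2 fold change on the deposited scale was -0.15, beside a median of -0.0001 over all genes. With the lower 50% of genes by mean level removed, the median over the remaining genes was -0.19. Of those remaining genes 19.5% were higher and 42.9% lower. The groups did not overlap for 7 of 10 members, against 73.7% of all genes. With EPZ-6438, 0 of 10 genes were called, where 0.0328% of all genes (6 of 18320) were. At an unadjusted p under 0.05 there were 4 of 10 members, against 16.8% of all genes, and limma on log2 counts called 0 as well. With MS8815N, 1 of 10 genes was called, HDAC9, where 0.533% of all genes were (0.245% lower), and 4 of 10 were under an unadjusted p of 0.05, against 15.7% of all genes. With the lower 50% of genes by mean level removed, 24.8% of the rest were under that p with EPZ-6438 and 23.5% with MS8815N. Of those remaining genes 4.23% were called with MS8815N. Groups did not overlap for 4 of 10 members with EPZ-6438, against 48.1% of all genes, and for 4 of 10 with MS8815N, against 46.7%. The 3 comparisons share their DMSO libraries.

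**Figure D1:**
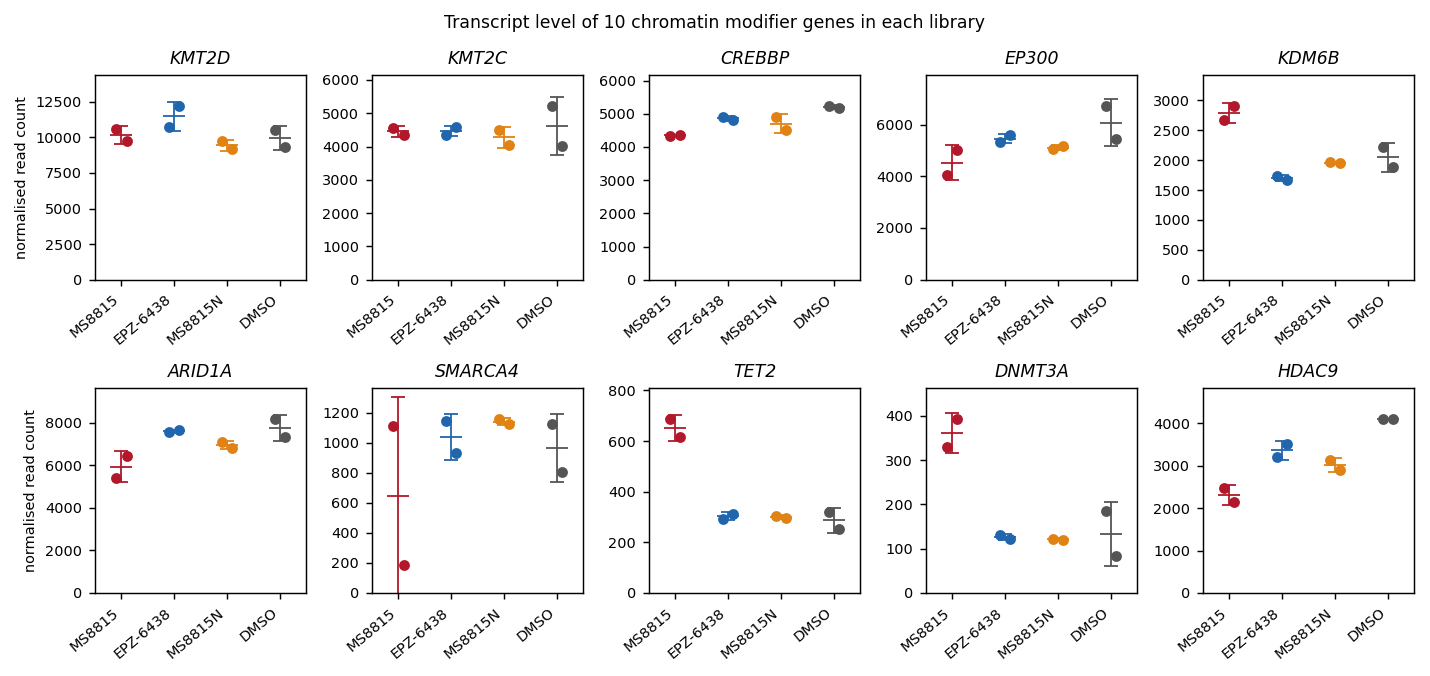
Normalised read count (vertical axis, starting at 0, a scale for each panel) of each of the 10 genes in the 2 libraries of MS8815, EPZ-6438, MS8815N and DMSO; points are libraries, long bars the mean and whiskers 1 SD (the lower whisker of SMARCA4 with MS8815 is cut at 0). TET2, DNMT3A and KDM6B were highest in both MS8815 libraries, HDAC9 was below DMSO in all 6 compound libraries, and the MS8815 libraries of SMARCA4 lay at 1114 and 183.5.

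The sequences at the starts of 4 of these genes are given because TET2, KDM6B and DNMT3A rose with MS8815, and HDAC9 was lower than DMSO in every compound library. RefSeq (GRCh38.p14) gave 23 windows for the 10 genes, each of 300 bases and reaching from upstream of a transcript start to just after it. Several windows of a gene overlap. For each gene the window with the most CpG dinucleotides is printed, and for KDM6B and HDAC9 a CpG-poor one beside it; they were chosen after their composition was seen. Capitals mark the GC box GGGCGG, the recognition motif of Sp1-type factors, on either strand (CCGCCC on the other strand).
TET2 start at chr4:105146626-105146925 (plus strand): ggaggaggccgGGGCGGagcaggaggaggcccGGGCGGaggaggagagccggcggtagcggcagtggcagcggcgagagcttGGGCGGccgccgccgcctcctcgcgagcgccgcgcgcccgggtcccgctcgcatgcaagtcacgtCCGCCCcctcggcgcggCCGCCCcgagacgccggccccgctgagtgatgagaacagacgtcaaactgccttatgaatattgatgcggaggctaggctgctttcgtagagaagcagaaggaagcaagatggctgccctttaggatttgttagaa
KDM6B upstream start at chr17:7833967-7834266 (plus strand): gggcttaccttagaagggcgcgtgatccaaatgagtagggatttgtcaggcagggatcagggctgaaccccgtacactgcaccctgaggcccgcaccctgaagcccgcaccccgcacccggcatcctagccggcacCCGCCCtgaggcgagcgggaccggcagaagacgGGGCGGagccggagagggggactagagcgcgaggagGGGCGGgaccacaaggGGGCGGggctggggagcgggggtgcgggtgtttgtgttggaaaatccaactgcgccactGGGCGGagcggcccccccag
KDM6B downstream start at chr17:7839667-7839966 (plus strand): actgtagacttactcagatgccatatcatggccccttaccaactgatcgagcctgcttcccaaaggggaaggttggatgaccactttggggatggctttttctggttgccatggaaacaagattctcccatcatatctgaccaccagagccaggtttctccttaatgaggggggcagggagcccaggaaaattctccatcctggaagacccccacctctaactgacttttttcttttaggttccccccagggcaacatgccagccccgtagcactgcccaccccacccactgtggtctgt
DNMT3A start at chr2:25341876-25342175 (minus strand): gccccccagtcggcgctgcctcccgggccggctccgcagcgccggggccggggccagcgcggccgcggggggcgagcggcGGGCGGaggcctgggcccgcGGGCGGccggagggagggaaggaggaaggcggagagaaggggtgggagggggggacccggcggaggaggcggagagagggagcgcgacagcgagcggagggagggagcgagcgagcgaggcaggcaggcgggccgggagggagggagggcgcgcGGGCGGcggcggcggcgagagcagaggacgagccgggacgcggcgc
HDAC9 upstream start at chr7:18086575-18086874 (plus strand): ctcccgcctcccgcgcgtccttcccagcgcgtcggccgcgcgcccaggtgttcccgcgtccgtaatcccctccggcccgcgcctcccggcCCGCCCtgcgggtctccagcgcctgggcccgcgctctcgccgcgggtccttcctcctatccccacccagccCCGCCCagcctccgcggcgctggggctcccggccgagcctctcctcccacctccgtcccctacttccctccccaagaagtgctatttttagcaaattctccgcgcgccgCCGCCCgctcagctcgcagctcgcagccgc
HDAC9 internal start at chr7:18495499-18495798 (plus strand): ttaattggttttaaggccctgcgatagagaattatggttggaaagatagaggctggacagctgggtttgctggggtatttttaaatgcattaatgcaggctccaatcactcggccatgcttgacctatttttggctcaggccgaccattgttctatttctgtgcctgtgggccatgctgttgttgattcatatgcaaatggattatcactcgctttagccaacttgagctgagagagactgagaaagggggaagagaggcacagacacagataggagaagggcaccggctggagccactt
Each of these genes has starts of unlike composition. The TET2 window shown held 35 CpG dinucleotides and 5 GC boxes, and the other TET2 window held 13 and 1. The upstream KDM6B window, which lies before the gene start of GENCODE 29, held 24 and 5, and the downstream one, at that gene start, 2 and 0. The DNMT3A window shown held 46 and 3, and its 6 windows ranged from 18 to 46 CpG dinucleotides and from 0 to 4 GC boxes. The upstream HDAC9 window held 41 and 3, and the internal one 5 and 0 with 2 copies of CCAAT. The 5 HDAC9 windows ranged from 0 to 41 CpG dinucleotides. SMARCA4, which was not called, also has a CpG-rich window (55 and 5) and a CpG-poor one (5 and 0). Among all 35116 RefSeq windows of this length the median was 14 CpG dinucleotides (quartiles 4 and 28), against a median of 26 (range 0 to 56) in the 23 windows of the 10 genes. The GC box was in 14 of the 23 windows (60.9%), covering 9 of the 10 genes, and in 45.0% of all windows. CCAAT was in 13.0% of the 23 and in 34.6% of all, and the E box CACGTG in 17.4% and 7.3%. The 3 windows with CCAAT were all of HDAC9, and the 4 with an E box were of 3 genes. Overlapping windows count the same site more than once, so these shares are not of independent windows. The interferon-stimulated response element (3.6% of all windows) and the ETS motif CCGGAAGT (4.1%) were in 0 of the 23. Both strands were searched for each motif, and none of the 5 motifs contains another. The tables do not separate transcripts by start, so which start of a gene was used is not known from these values.

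The enhancer methyltransferase genes KMT2D and KMT2C were not called with any compound on the deposited scale; other scalings of the MS8815 libraries are given below. KMT2D (chromosome 12:49018975-49059774, GRCh38), the enhancer methyltransferase most often inactivated in these lymphomas, had 10610 and 9716 normalised counts with MS8815, 10760 and 12214 with EPZ-6438, 9728 and 9161 with MS8815N, and 10543 and 9342 with DMSO. Both EPZ-6438 libraries were above both DMSO libraries, and the other groups overlapped DMSO. Its log2 fold change was 0.03 (95% confidence interval -0.14 to 0.21) with MS8815, 0.21 (0.03 to 0.38, adjusted p = 0.236) with EPZ-6438, and -0.07 (-0.21 to 0.07) with MS8815N. KMT2C (7:152134922-152436005), its paralog, had 4560 and 4345 normalised counts with MS8815, 4356 and 4576 with EPZ-6438, 4504 and 4048 with MS8815N, and 5223 and 4006 with DMSO. All 6 compound libraries lay between the 2 DMSO libraries. The confidence intervals of its log2 fold changes ran from -0.34 to 0.26 with MS8815, from -0.30 to 0.23 with EPZ-6438, and from -0.38 to 0.18 with MS8815N. The ratio of KMT2D to KMT2C on the common scale is unchanged by 1 scaling factor per library, but not by quantile normalisation. That ratio was 2.33 and 2.24 with MS8815, 2.47 and 2.67 with EPZ-6438, 2.16 and 2.26 with MS8815N, and 2.02 and 2.33 with DMSO.

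Of the acetyltransferase genes, CREBBP and EP300 were both lower with MS8815 on the deposited scale. CREBBP (16:3725054-3880726) had 4328 and 4362 normalised counts with MS8815, 4910 and 4813 with EPZ-6438, 4903 and 4506 with MS8815N, and 5239 and 5168 with DMSO. Every compound library was below both DMSO libraries. CREBBP fell by 0.26 on the log2 scale with MS8815 (SE 0.05, adjusted p = 0.0049), while its values with EPZ-6438 (-0.10, adjusted p = 0.234) and MS8815N (-0.15, adjusted p = 0.208) were not called. EP300 (22:41091786-41180079), its paralog, had 4058 and 5002 normalised counts with MS8815, 5324 and 5585 with EPZ-6438, 5048 and 5171 with MS8815N, and 6726 and 5433 with DMSO. The MS8815 and MS8815N libraries were below both DMSO libraries, and the EPZ-6438 libraries overlapped them. EP300 fell by 0.42 with MS8815 (SE 0.13, adjusted p = 0.0442). The EP300 call was lost without any 1 of the 4 libraries, with adjusted p of 0.0784 to 0.289. The CREBBP call was lost without DMSO replicate 1 (adjusted p = 0.073) or DMSO replicate 2 (0.0682).

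KDM6B (17:7839904-7854796), which removes the trimethyl mark written by EZH2, rose with MS8815 and was not called with EPZ-6438 or MS8815N. It had 2675 and 2910 normalised counts with MS8815, 1741 and 1665 with EPZ-6438, 1962 and 1950 with MS8815N, and 2215 and 1879 with DMSO. Both MS8815 libraries were above all others, and both EPZ-6438 libraries were below all others. The rise with MS8815 was 0.45 on the log2 scale (SE 0.10, 1.37-fold, adjusted p = 0.0107), and the value with EPZ-6438 was -0.26 (adjusted p = 0.206). The call with MS8815 was lost without DMSO replicate 2 (adjusted p = 0.115), MS8815 replicate 1 (0.0547) or MS8815 replicate 2 (0.0906). KDM6A, the X-linked demethylase of the same mark and a subunit of the KMT2D complexes, had 560.6 and 574.1 normalised counts with MS8815, 38.46 and 51.32 with EPZ-6438, 33.69 and 25.88 with MS8815N, and 30.92 and 17.82 with DMSO. KDM6A rose by 4.49 with MS8815 (SE 0.32, adjusted p = 7.03e-05), beside a median of 3.75 for the adherent-cell markers in the same libraries. The part of other cells' RNA in that rise was not tested.

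The remodeller genes behaved unlike each other. ARID1A (1:26693236-26782110), a DNA-binding subunit of the SWI/SNF complex BAF, had 5403 and 6435 normalised counts with MS8815, 7559 and 7646 with EPZ-6438, 7085 and 6817 with MS8815N, and 8164 and 7322 with DMSO. The MS8815 and MS8815N libraries were below both DMSO libraries, and the EPZ-6438 libraries lay between them. ARID1A fell by 0.39 on the log2 scale with MS8815 (SE 0.09, adjusted p = 0.0169), and its value with MS8815N was -0.15 (adjusted p = 0.248). The call was lost without DMSO replicate 1 (adjusted p = 0.173), DMSO replicate 2 (0.0853) or MS8815 replicate 1 (0.0997). SMARCA4 (19:10960825-11079426), the ATPase BRG1 of the complex, had 1114 and 183.5 normalised counts with MS8815, 1146 and 929.9 with EPZ-6438, 1157 and 1123 with MS8815N, and 1127 and 805.5 with DMSO. MS8815 replicate 2 was below every other library, and MS8815 replicate 1 lay within the range of DMSO. These MS8815 replicates differed by 2.59 log2 units, and of 11033 genes with a mean of at least 100 in that group 10 (0.0906%) differed as far. The log2 fold change of SMARCA4 with MS8815 was -1.07 (95% confidence interval -3.00 to 0.86, adjusted p = 0.367), 0.22 without replicate 2 (adjusted p = 0.517) and -2.37 without replicate 1 (adjusted p = 0.0284). No direction for SMARCA4 with MS8815 can be read from these libraries.

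Both DNA methylation genes rose with MS8815 from low levels. TET2 (4:105145875-105279816), which oxidises methylated cytosine, had 686.5 and 615.7 normalised counts with MS8815, 293.3 and 313.7 with EPZ-6438, 305.4 and 295.6 with MS8815N, and 321.6 and 251.9 with DMSO. Both MS8815 libraries were above all others, and the libraries of EPZ-6438 and MS8815N lay within the range of DMSO. TET2 rose by 1.19 on the log2 scale with MS8815 (SE 0.17, 2.28-fold, adjusted p = 0.00204), and the call was lost only without DMSO replicate 2 (1.02, adjusted p = 0.0594). With EPZ-6438 and MS8815N the 95% confidence intervals ran from -0.26 to 0.45 and from -0.27 to 0.42. DNMT3A (2:25227855-25342590), a de novo DNA methyltransferase, had 329 and 392.4 normalised counts with MS8815, 130.7 and 122.3 with EPZ-6438, 122.4 and 119.2 with MS8815N, and 185.3 and 82.76 with DMSO. Its DMSO libraries stood far apart, and both MS8815 libraries were above all others. DNMT3A rose by 1.52 with MS8815 (SE 0.39, 2.87-fold, adjusted p = 0.0136). The DNMT3A call was lost without DMSO replicate 2 (0.95, adjusted p = 0.12), MS8815 replicate 1 (1.65, adjusted p = 0.0806) or MS8815 replicate 2 (1.40, adjusted p = 0.117), and held without DMSO replicate 1 (2.09, adjusted p = 0.0408).

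HDAC9 (7:18086949-19002416), a class IIa deacetylase that partners with MEF2 factors, was the 1 member called with 2 of the 3 compounds. It had 2487 and 2151 normalised counts with MS8815, 3213 and 3523 with EPZ-6438, 3137 and 2900 with MS8815N, and 4094 and 4101 with DMSO. Both MS8815 libraries were below all others, and all 6 compound libraries were below both DMSO libraries, which were nearly equal. HDAC9 fell by 0.82 on the log2 scale with MS8815 (SE 0.08, 0.565 of the DMSO level, adjusted p = 0.000466) and by 0.44 with MS8815N (SE 0.05, 0.736 of the DMSO level, adjusted p = 0.0213). With EPZ-6438 the value was -0.28 (SE 0.05, adjusted p = 0.0921). The MS8815 call held without each library in turn (-0.93 to -0.72). The MS8815N call was lost without each of the 4 libraries (-0.50 to -0.39, adjusted p 0.143 to 0.443) and when all 8 libraries shared 1 estimate of the spread (adjusted p = 0.0765). The ratio of HDAC9 to CREBBP on the common scale is likewise unchanged by 1 scaling factor per library, but not by quantile normalisation. That ratio was 0.575 and 0.493 with MS8815, 0.654 and 0.732 with EPZ-6438, 0.640 and 0.644 with MS8815N, and 0.781 and 0.794 with DMSO.

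**Figure D2:**
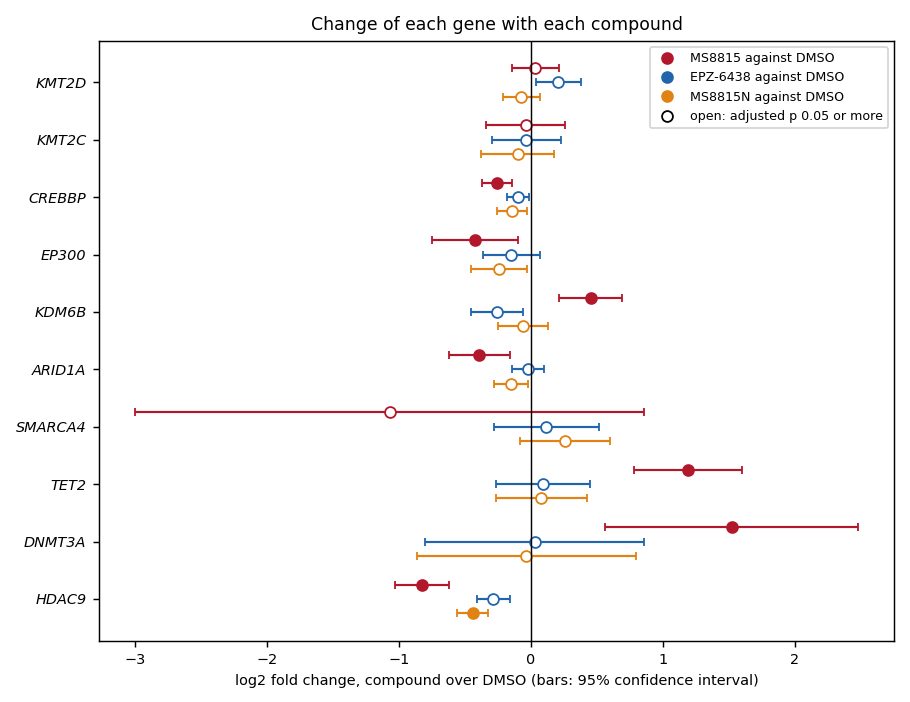
Log2 fold change over DMSO (horizontal axis) of each of the 10 genes with MS8815, EPZ-6438 and MS8815N, with 95% confidence intervals; filled points had an adjusted p under 0.05. On the deposited scale the filled points are 7 of MS8815 and 1 of MS8815N (HDAC9, -0.44), and the interval of SMARCA4 with MS8815 runs from -3.00 to 0.86.

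The direction of the MS8815 results depends in part on how the libraries are put on 1 scale. Scaling the libraries to the B-cell markers moved the median log2 fold change of all genes to 1.02, and quantile normalisation moved it to -0.20. TET2 was higher under all 3 scalings (1.19 as deposited, 0.72 after quantile normalisation with adjusted p = 0.0142, 2.23 with B-cell scaling with adjusted p = 0.000315). KDM6B was higher under all 3 as well (0.45, 0.62 with adjusted p = 0.00532, and 1.50 with adjusted p = 0.000163). DNMT3A was positive under all 3 but not called after quantile normalisation (0.56, adjusted p = 0.224). HDAC9 was also lower after quantile normalisation (-0.63, adjusted p = 0.00289), but had a positive value with B-cell scaling (0.22, adjusted p = 0.0998). Relative to the median of all genes, HDAC9 stood at -0.82 as deposited, -0.43 after quantile normalisation and -0.80 with B-cell scaling. CREBBP, EP300 and ARID1A were higher with B-cell scaling (0.79, 0.62 and 0.66) and not called after quantile normalisation (0.0015, -0.15 and -0.08). Relative to the median of all genes they stood at -0.26, -0.42 and -0.39 as deposited, -0.23, -0.40 and -0.36 with B-cell scaling, and 0.20, 0.05 and 0.12 after quantile normalisation. KMT2D, not called as deposited, was called after quantile normalisation (0.36, adjusted p = 0.0124) and with B-cell scaling (1.08, adjusted p = 0.000403). KMT2C was called with B-cell scaling (1.01, adjusted p = 0.00138). With B-cell scaling KMT2D and KMT2C stood at 0.06 and -0.01 relative to the median of all genes, so those values are the size of the shift itself. After quantile normalisation they stood at 0.56 and 0.42 relative to that median. TET2 stood at 1.19 as deposited, 0.92 after quantile normalisation and 1.21 with B-cell scaling relative to it, KDM6B at 0.45, 0.82 and 0.48, and DNMT3A at 1.52, 0.76 and 1.54.

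**Figure D3:**
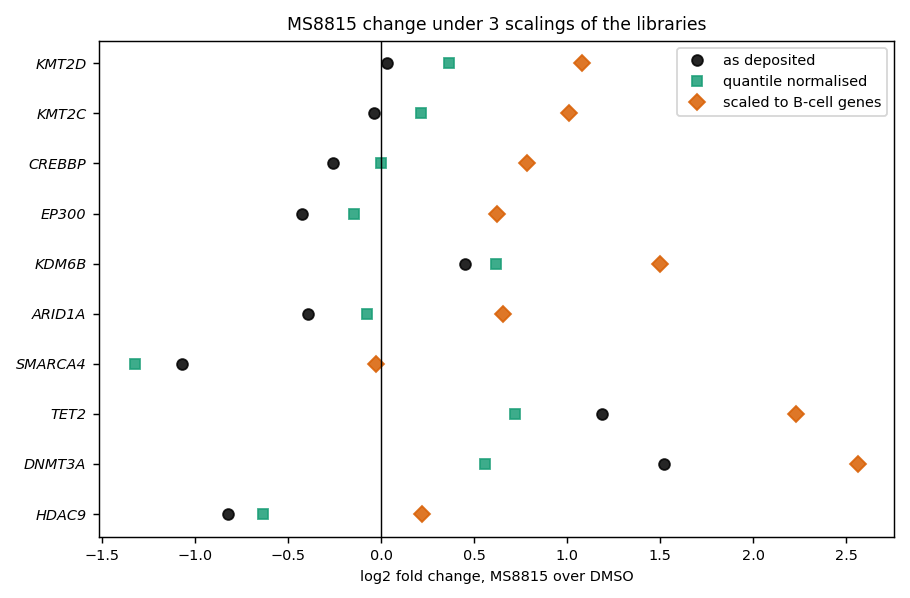
Log2 fold change of the 10 genes with MS8815 over DMSO (horizontal axis) in 3 versions, the deposited scale, quantile normalisation, and libraries scaled to B-cell markers. TET2, DNMT3A and KDM6B lie right of 0 under all 3 scalings, whereas HDAC9, CREBBP, EP300 and ARID1A lie right of 0 with B-cell scaling.

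The 3 compounds were set against each other at 2.5 µM and 18 h, in 3 pairs for each gene. MS8815 differed from EPZ-6438, the catalytic inhibitor, for 6 of 10 genes, where 50.6% of all genes were called. TET2 (1.10), DNMT3A (1.50) and KDM6B (0.71) were higher with MS8815, and HDAC9 (-0.54), ARID1A (-0.37) and CREBBP (-0.16) were lower on the deposited scale, with adjusted p of 0.000176 (KDM6B) to 0.0194 (CREBBP). Over all genes 24.2% were higher and 26.3% lower. With B-cell scaling the values of HDAC9, ARID1A and CREBBP were positive (0.51, 0.69 and 0.89). MS8815 differed from its non-PROTAC analog MS8815N for 5 of 10 genes, where again 50.6% of all genes were called (24.2% higher and 26.3% lower). TET2 (1.11, SE 0.14), DNMT3A (1.56, SE 0.33) and KDM6B (0.51, SE 0.08) were higher, and HDAC9 (-0.38, SE 0.08, adjusted p = 0.00398) and ARID1A (-0.24, SE 0.08, adjusted p = 0.0395) were lower on the deposited scale, again with positive values under B-cell scaling (0.62 and 0.77). After quantile normalisation TET2 (0.77 against EPZ-6438 and 0.76 against MS8815N), KDM6B (0.84 and 0.65) and HDAC9 (-0.41 and -0.26) were still called in both pairs. DNMT3A was then not called in either (0.79, adjusted p = 0.0529, against EPZ-6438, and 0.80, adjusted p = 0.0506, against MS8815N), nor was ARID1A (-0.12 and 0.0074), nor CREBBP against EPZ-6438 (0.04). KMT2D was then higher than with MS8815N (0.37, adjusted p = 0.00544). On the joined deposited scale the differences of TET2, DNMT3A, KDM6B and HDAC9 in both pairs kept their direction when 1 library was left out. Against MS8815N they ran from 1.03 to 1.19, 1.44 to 1.69, 0.45 to 0.57 and -0.49 to -0.28. The CREBBP difference from EPZ-6438 ran from -0.18 to -0.15 and the ARID1A difference from MS8815N from -0.36 to -0.11. The calls of these 2 differences did not hold in every such fit. Leaving out a DMSO library cannot move a difference between compounds and changes only the estimate of the spread.

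MS8815N and EPZ-6438 differed for 0 of 10 genes by limma, where 0.172% of all genes were called, and for 2 of 10 at an unadjusted p under 0.05 (6.13% of all genes). The difference for KMT2D was -0.28 (95% confidence interval -0.46 to -0.10, adjusted p = 0.491), and KDM6B had a difference of 0.20 (0.01 to 0.39, adjusted p = 0.786). The interval for HDAC9 was -0.34 to 0.03, for TET2 -0.35 to 0.32, for ARID1A -0.32 to 0.06, and for CREBBP -0.16 to 0.06. These intervals do not show that the 2 compounds act alike. The interval for DNMT3A, -0.83 to 0.70, leaves room for differences of up to that size. That for SMARCA4, -1.40 to 1.68, narrowed to -0.22 to 0.50 when the MS8815 libraries were not used to estimate the spread.

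**Figure D4:**
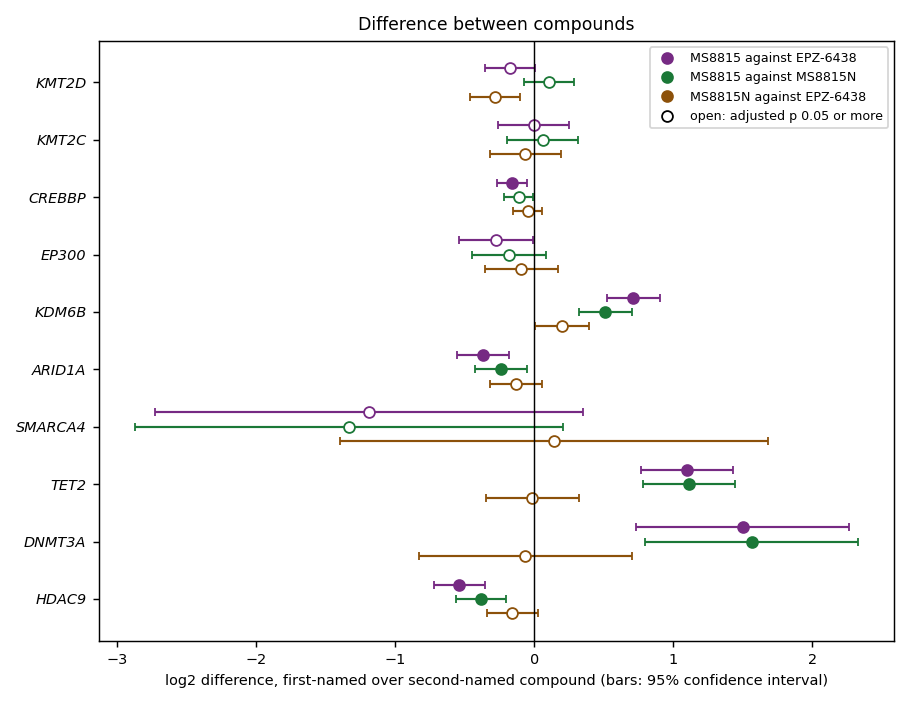
Log2 difference between compounds (horizontal axis, first-named over second-named) for each of the 10 genes, with 95% confidence intervals; filled points had an adjusted p under 0.05. On the joined deposited scale TET2, DNMT3A and KDM6B lie right of 0 and HDAC9 left of 0 in both pairs with MS8815, and all 10 points of MS8815N against EPZ-6438 are open.

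The other genes of the same machinery were counted by list, beside 24.5% of all genes higher and 22.4% lower with MS8815. With the lower 50% of genes by mean level removed, 19.5% of the rest were higher and 42.9% lower, with a median of -0.19. With MS8815 on the deposited scale, 2 of 12 COMPASS subunits rose and 6 fell (median log2 fold change -0.21). The histone methyltransferase gene SETD1B was among the risers (0.71, SE 0.08, adjusted p = 0.001), as was KDM6A. Of 7 other lysine acetyltransferases 1 rose, KAT5 (0.65, SE 0.10), and 2 fell, one of them KAT8 (-0.42, SE 0.09). Of 21 SWI/SNF subunits 1 rose and 13 fell (median -0.38), among them BCL7A (-0.76, SE 0.06), itself a gene mutated in B-cell lymphoma, and SMARCD2 (-0.59, SE 0.06). Of 10 DNA methylation enzymes and readers 0 rose and 6 fell (median -0.34), among them the methyl-CpG reader MBD2 (-1.19, SE 0.05) and the maintenance methyltransferase DNMT1 (-0.67, SE 0.04). DNMT1 and DNMT3A thus had values of opposite sign on this scale.

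Of 12 deacetylases and corepressors 1 rose, HDAC11 (2.20, SE 0.25), and 5 fell (median -0.20), HDAC1 among them (-0.75, SE 0.03). Of 13 lysine demethylases 2 rose and 5 fell (median -0.15), KDM5C among them (-0.40, SE 0.04). Of 6 PRC2 genes 0 rose and 5 fell (median -0.39). These counts stand beside 24.5% of all genes higher and 22.4% lower on the deposited scale. The histone chaperone genes RBBP4 (-0.73, SE 0.04) and RBBP7 (-0.52, SE 0.03) fell, and EZH2 itself, whose protein is the target of the compounds, had 3883 and 3673 normalised counts with MS8815, 4587 and 4637 with EPZ-6438, 4409 and 4509 with MS8815N, and 4430 and 4674 with DMSO. EZH2 transcript fell by 0.27 with MS8815 on the deposited scale (SE 0.06, adjusted p = 0.0123), and its values with EPZ-6438 (0.02, adjusted p = 0.86) and MS8815N (-0.03, adjusted p = 0.79) were not called. After quantile normalisation, where 19.8% of all genes were higher and 29% lower, fewer members of these lists fell. The COMPASS list then had 3 higher and 2 lower, the acetyltransferases 1 and 1, the SWI/SNF subunits 1 and 9, the DNA methylation genes 0 and 3, the deacetylases and corepressors 2 and 2, the demethylases 2 and 2, and the PRC2 genes 0 and 3. With B-cell scaling, where 71.8% of all genes were higher, 0 genes of these lists fell, and the median of each of these 7 lists was positive (0.65 to 0.90), as was the median of all genes (1.02).

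Genes reported to depend on CREBBP or KMT2D in germinal-centre B cells or lymphoma were counted as well. Of 12, 7 rose and 2 fell with MS8815 on the deposited scale (median 0.97), where 24.5% of all genes were higher and 22.4% lower. After quantile normalisation 4 rose and 2 fell (median 0.21), and with B-cell scaling 11 rose and 0 fell (median 2.01). SOCS3, a feedback inhibitor of cytokine signalling, had 627.5 and 587.8 normalised counts with MS8815, against 34.03 and 31.25 with DMSO, and rose by 4.16 (SE 0.21, adjusted p = 5.43e-05). CD74, the invariant chain of MHC class II and a B-cell gene, had 6527 and 6580 with MS8815, against 12624 and 12987 with DMSO. CD74 fell by 0.97 (SE 0.04, adjusted p = 3.17e-05) on the deposited scale. In the same list HLA-DRA (3.19), CIITA (2.27), HLA-DMB (1.07) and HLA-DPA1 (0.87) rose on that scale, and HLA-DMA was not called (0.22). These values stand beside medians of 3.75 for adherent-cell markers and -1.01 for B-cell markers in the same libraries, and the part of other cells' RNA was not tested. With EPZ-6438 and with MS8815N, limma called 0 genes of any of these 8 lists. At an unadjusted p under 0.05, EPZ-6438 had 2 of 12 COMPASS subunits, 3 of 7 acetyltransferases, 7 of 21 SWI/SNF subunits, 2 of 10 DNA methylation genes, 3 of 12 deacetylases and corepressors, 2 of 13 demethylases, 2 of 6 PRC2 genes and 4 of 12 CREBBP or KMT2D dependent genes, against 16.8% of all genes. In the same order MS8815N had 3, 4, 6, 1, 3, 3, 3 and 1, against 15.7% of all genes. With the lower 50% of genes by mean level removed, these shares were 24.8% with EPZ-6438 and 23.5% with MS8815N.

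Levels of the 10 genes in DMSO-treated cells were compared per length, as the normalised count divided by the kilobases of the longest coding transcript of GENCODE 29. ARID1A was highest at 902 ± 69.4 counts per kb (SD, n = 2), followed by EP300 at 634 ± 95.4, KMT2D at 512 ± 43.7, CREBBP at 482 ± 4.66, HDAC9 at 422 ± 0.518, KDM6B at 305 ± 35.3, KMT2C at 274 ± 51 and SMARCA4 at 167 ± 39.3. TET2 and DNMT3A were lowest, at 28.2 ± 4.85 and 14.1 ± 7.63. The neighbours KMT2D and CREBBP, and KDM6B and KMT2C, overlapped in their libraries, so their order is not resolved. Of the 10 genes, 9 had the higher value in DMSO replicate 1, HDAC9 being the exception, and 9 of 10 had it in MS8815N replicate 1, 5 of 10 in MS8815 replicate 1 and 4 of 10 in EPZ-6438 replicate 1. The same share over all genes was not counted, so whether this is particular to the 10 genes is not known.

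**Figure D5:**
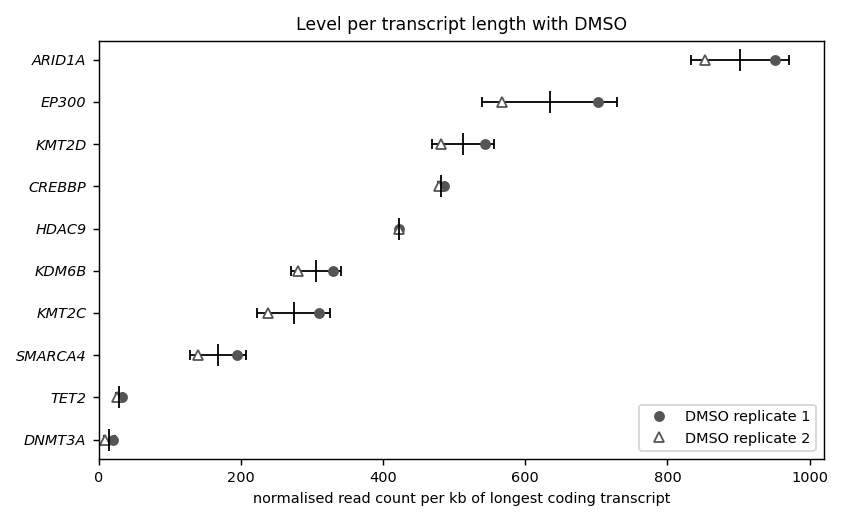
Normalised read count per kb of the longest coding transcript (horizontal axis, from 0) of the 10 genes in the 2 DMSO libraries, with the mean and 1 SD. ARID1A lies at 902 counts per kb and DNMT3A at 14.1.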

How the data were processed

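RNA sequencing libraries of 8 samples were used, 2 in each of 4 groups. Per the submitters' processing notes, STAR 2.4.2, Salmon and GRCh38 were used. Their roles, and which of the kits named in the labels served which library, are not given in the sources used here. The deposited values are 3 tables of variance-stabilised values on a log2-type scale, made by the authors with DESeq2 according to the table names, each with 1 compound and the shared DMSO libraries. The transform was inverted to normalised counts, and the tables were joined on the MS8815N scale through the DMSO libraries. These differed between tables only by a constant for each gene and an offset between the DMSO libraries (largest deviation 7.04e-11 over 17219 genes). In DMSO replicate 1, for example, KMT2D stood at 10543 in the MS8815N table and 6486 in the MS8815 table, and KMT2C at 5223 and 3369. The deposited values were thus scaled by gene as well as by library. The 10 genes that lacked a constant took the median one. Depth was estimated from low values, of which 41.6% to 63.6% were whole multiples of 1 read within a tolerance of 0.02. Intervals from counting were not used, since raw counts were not analysed here.

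Within each table, the compound was set against DMSO by limma 3.58.1 (R 4.3.3) with a variance trend on the deposited values (2 residual degrees of freedom), two-sided, with Benjamini-Hochberg adjustment over all genes of the table. Log2 fold changes, SE and 95% confidence intervals came from log2(normalised count + 1). Compounds were compared with each other on log2(normalised count + 1) of the joined libraries (4 residual degrees of freedom), adjusted over 17467 genes. A gene was called at an adjusted p under 0.05. Every list was counted by direction and median without a set test. The named genes were the 10 members, EZH2, marker genes, and up to 2 called genes with the smallest p of each list. The CIITA and HLA genes of the CREBBP or KMT2D list were named as well, beside CD74. The members and lists were chosen with earlier results of these data known. The alternatives were other scalings, filters, test scales and prior variances, a replicate block and leaving out each library. Both kinds of fit were run on simulated data with the same dispersion (spread beyond counting) for every gene and group. That setting is simpler than these data, so it does not measure the error rates of the fits here.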

Additional observations from a re-analysis of the deposited data

How the results depend on the processing

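The count of members called with MS8815 against DMSO was 7 and came to 4 after quantile normalisation (48.8% of all genes called) and to 8 with B-cell scaling (72.5% of all genes). When 1 library was left out fewer members were called, and without a DMSO library fewer of all genes were as well. The 7 genes kept their direction in these fits. With EPZ-6438 the count of 0 became 1 when the lower 50% of genes were removed (HDAC9, adjusted p = 0.0448 by limma), where 3.09% of the remaining genes were called. With MS8815N the count of 1 became 0 when all 8 libraries were in one fit, and was 0 to 0 when 1 library was left out. MS8815 against EPZ-6438 had 6, which became 3 after quantile normalisation (55.3% of all genes called) and 9 with B-cell scaling (77.8%). MS8815 against MS8815N had 5, which became 4 after quantile normalisation (54.5%) and 9 with B-cell scaling (77.4%). In both pairs the called members kept their direction on the deposited scale with 1 library left out, though not every call held. MS8815N against EPZ-6438 had 0 with each library left out. A group reduced to 1 library was assumed to vary like the others.

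Of 744 alternative values for single genes, 57 had the other sign, 39 of them for a gene called under neither setting (9 after quantile normalisation, 3 with B-cell scaling and 27 with 1 library left out). The 18 others, called under at least 1 of the settings, are given here. With B-cell scaling these were, for MS8815 against DMSO, KMT2C 1.01, CREBBP 0.79, EP300 0.62, ARID1A 0.66 and HDAC9 0.22. For MS8815 against EPZ-6438 they were KMT2D 0.88, KMT2C 1.05, CREBBP 0.89, EP300 0.78, ARID1A 0.69 and HDAC9 0.51, and for MS8815 against MS8815N they were CREBBP 0.89, EP300 0.82, ARID1A 0.77 and HDAC9 0.62. After quantile normalisation they were CREBBP 0.0015 (MS8815 against DMSO) and 0.0371 (MS8815 against EPZ-6438), and ARID1A 0.0074 (MS8815 against MS8815N). Of the alternatives with the same sign, 639 kept direction and call, 35 lost the call and 13 gained it. The causes were not tested.

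With a replicate block the member counts were 7, 0, 1, 6, 4 and 0 in the order MS8815, EPZ-6438 and MS8815N against DMSO, then MS8815 against EPZ-6438, MS8815 against MS8815N, and MS8815N against EPZ-6438. In the same order 46.4%, 0.0546%, 1.92%, 49.7%, 49.5% and 0.143% of all genes were called. Same-numbered libraries of MS8815N and DMSO deviated together (r = 0.285 over 8733 genes), and those of the other pairs did not (-0.0233 to 0.0478). The numbers thus showed no pairing across all groups. Whether they pair MS8815N with DMSO is not given in the labels, and the main fits did not use them. Over all genes, the call count moved by more than 1.5 times for EPZ-6438 (6, against 283 with the lower 50% of genes removed, 169 without a variance trend, 25 on log2 counts, 13 after quantile normalisation, 10 with the block, 184 in 1 fit without the MS8815 libraries and 0 with all 8). For MS8815N 98 became 389, 252, 353 with the block, 298 in 1 fit without the MS8815 libraries and 65 with all 8, and 0 to 6 when 1 library was left out. For MS8815N against EPZ-6438 30 became 4 without a trend, 18 after quantile normalisation, 73 in 1 fit without the MS8815 libraries and 8 to 11 when 1 library was left out. For MS8815 against DMSO 8782 became 13597 with B-cell scaling, 5856 with the lower 50% removed, and 3583 to 8932 when 1 library was left out. The share of calls that were higher was 52.3%, 40.6% after quantile normalisation and 99.0% with B-cell scaling. The fit without the MS8815 libraries was added after the data were seen. With 2 libraries a group and shallower MS8815 libraries, small changes of low genes such as DNMT3A are poorly resolved.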
